A study of Homo sapiens with 12 samples.

Results

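A set of 10 genes of the neuronal cytoskeleton was followed through the copper response of KLE and Ishikawa cells, both human endometrial cancer lines. They were taken by symbol from a table of 20332 genes, and all 10 were found: the microtubule-associated proteins MAP1A, MAP1B, MAP2 and MAPT (tau), the neurofilament subunits NEFM, NEFH and NEFL, the beta-tubulins TUBB3 and TUBB2B, and ARC, an activity-regulated protein of the neuronal cytoskeleton. The set was selected on its copper response in these libraries, under the name of genes induced by copper, so its copper values below are a description and carry no test. That name fitted only some of the set: 7 genes were higher with copper in both lines, MAPT and TUBB2B were lower in both, and NEFL was at 0 counts in 11 of 12 libraries.

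RNA sequencing was done on 4 groups of 3 libraries, labelled as independent biological replicates. These were KLE cells after 24 h in 200 µM CuCl2, KLE cells without copper, Ishikawa cells after 24 h in 200 µM CuCl2, and Ishikawa cells without copper (labelled both as untreated and as vehicle). Each line was maintained in DMEM/F12 with serum, and each is 1 established line, so the replicates measure the spread between cultures of that line. Libraries held 14050275 to 25057003 counts. The deepest, Ishikawa control 2, stood apart: the chi-square of its counts against the other controls was 8.16 to 12.4 per degree of freedom, where the other replicate pairs of all groups gave 2.02 to 3.81. Without it the 7 genes stayed higher and the 2 genes lower in Ishikawa cells. Epithelial markers were abundant in every group, with EPCAM at 993 and 1040 TPM in copper-treated and untreated KLE cells, and at 762 and 841 TPM in copper-treated and untreated Ishikawa cells (means, n = 3), whereas the hormone receptors ESR1 and PGR averaged at most 0.386 TPM in any group.

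Microtubules are polymers of alpha- and beta-tubulin. In neurons, MAP2 marks dendrites, tau marks axons, and MAP1A and MAP1B bind microtubules along both, each made as a precursor that is cleaved into a heavy and a light chain. Neurofilaments are intermediate filaments of axons built from NEFL with NEFM, NEFH and alpha-internexin (INA), and in neurons NEFM and NEFH depend on NEFL or INA to form filaments. TUBB3 is the beta-tubulin used as a marker of neurons, and ARC, whose gene descends from a retrotransposon gag gene, is made after synaptic activity and acts at the postsynaptic cytoskeleton.

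Promoter sequences are shown for 5 of the genes, among them 4 that were higher and 1 that was lower with copper, to let the letters be set beside the values. RefSeq windows of GRCh38.p14, from 250 bases before to 50 after an annotated start, were searched on both strands for the heat shock element (GAANNTTC or TTCNNGAA, each its own reverse complement) and the metal response element core (TGCACNC or TGCGCNC). The windows lie at chr15:43510704-43511003 (plus strand, MAP1A), chr5:72179537-72179836 (plus, MAP1B), chr2:209579357-209579656 (plus, MAP2), chr16:89923092-89923391 (plus, TUBB3) and chr6:3227604-3227903 (minus, TUBB2B). Where a gene has more than 1 window, the window shown is a window with a match. The other windows of MAP1A, MAP1B and TUBB3 hold neither motif, and that of MAP1B (chr5:72107225-72107524) lies at the annotated start of the gene. For MAP2, the window at chr2:209579082-209579381 holds neither and that at chr2:209661246-209661545 holds a metal response element core. Each window shown is written 5′ to 3′ on the strand of the gene, with matches to either motif in capitals.
MAP1A: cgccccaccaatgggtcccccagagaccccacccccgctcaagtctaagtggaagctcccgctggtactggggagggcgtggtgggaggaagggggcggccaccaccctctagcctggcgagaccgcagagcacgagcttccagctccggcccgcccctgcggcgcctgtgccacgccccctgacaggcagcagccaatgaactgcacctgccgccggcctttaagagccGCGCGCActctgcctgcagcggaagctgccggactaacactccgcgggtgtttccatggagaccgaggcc
MAP1B: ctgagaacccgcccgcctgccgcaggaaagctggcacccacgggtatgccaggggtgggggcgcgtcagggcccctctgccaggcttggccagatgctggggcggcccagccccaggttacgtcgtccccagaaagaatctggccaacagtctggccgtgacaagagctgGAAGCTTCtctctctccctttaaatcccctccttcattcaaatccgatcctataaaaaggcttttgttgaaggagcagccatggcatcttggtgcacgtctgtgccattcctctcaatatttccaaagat
MAP2: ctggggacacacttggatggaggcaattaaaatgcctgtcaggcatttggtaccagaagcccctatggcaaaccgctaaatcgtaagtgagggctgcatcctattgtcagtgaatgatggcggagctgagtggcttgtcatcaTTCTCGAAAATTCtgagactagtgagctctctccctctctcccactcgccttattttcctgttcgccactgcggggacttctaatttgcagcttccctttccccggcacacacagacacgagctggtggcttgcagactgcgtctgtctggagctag
TUBB3: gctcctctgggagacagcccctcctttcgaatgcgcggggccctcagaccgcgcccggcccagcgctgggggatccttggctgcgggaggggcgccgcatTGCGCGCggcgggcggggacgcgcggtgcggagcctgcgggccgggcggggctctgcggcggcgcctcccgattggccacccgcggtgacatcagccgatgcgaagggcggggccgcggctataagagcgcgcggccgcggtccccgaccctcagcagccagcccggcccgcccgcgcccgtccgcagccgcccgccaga
TUBB2B: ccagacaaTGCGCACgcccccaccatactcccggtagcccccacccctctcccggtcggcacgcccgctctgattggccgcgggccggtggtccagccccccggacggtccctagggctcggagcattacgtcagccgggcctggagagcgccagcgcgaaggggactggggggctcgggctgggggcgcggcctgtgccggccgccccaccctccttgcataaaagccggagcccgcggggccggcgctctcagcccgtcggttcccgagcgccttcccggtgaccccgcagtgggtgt
The MAP1B window held a heat shock element that begins 80 bases before the start, and the MAP2 window held 2 overlapping ones, beginning at 107 and 102 bases before it. The capitals in MAP1A, TUBB3 and TUBB2B are metal response element cores, beginning 20, 150 and 242 bases before the start. Of the 10 windows annotated for these 5 genes, 2 held the heat shock element, against 13.5% of 34943 promoter windows of the same length, and 4 held the metal response element core, against 29.5%. The antioxidant response element core TGANNNNGC was in 4 of the 10 (41.8% of all windows), the AP-1 site (TGACTCA or TGAGTCA) in 1 (4.96%) and the cAMP response element TGACGTCA in 0 (1.84%). The metal response element core was present both in genes that were higher and in TUBB2B, which was lower.

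MAP1A and MAP1B, the large microtubule-associated proteins, were higher with copper in both lines. Levels are in TPM, the authors' values scaled to transcript length and library total, so they can be compared between genes. MAP1B (ENSG00000131711, chromosome 5, 72107475 to 72209565) stood at 29.1, 28.5 and 33.5 TPM in copper-treated KLE cells, against 4.19, 5.55 and 5.92 TPM in untreated KLE cells. In Ishikawa cells it stood at 92.4, 104 and 93.1 TPM with copper, against 3.38, 3.63 and 3.45 TPM without. The groups did not overlap in either line, and copper-treated Ishikawa cells were the highest of the 4 groups. In log2 fold change, estimated by edgeR from counts and given with its standard error, MAP1B was at 2.54 ± 0.09 in KLE cells and 4.84 ± 0.07 in Ishikawa cells. MAP1A (ENSG00000166963, chromosome 15, 43510954 to 43531611) stood at 11.3, 10.8 and 12.1 TPM in copper-treated KLE cells, against 0.981, 0.971 and 1.51 TPM in untreated KLE cells. In Ishikawa cells MAP1A stood at 40.8, 46.5 and 40.2 TPM with copper, against 2.49, 2.37 and 2.37 TPM without. All treated libraries were again above all untreated ones, with log2 fold changes of 3.32 ± 0.10 in KLE cells and 4.33 ± 0.07 in Ishikawa cells. The ratio of MAP1B to MAP1A in TPM was 2.66 ± 0.104 in copper-treated KLE cells and 4.64 ± 0.955 in untreated KLE cells. In Ishikawa cells it was 2.27 ± 0.0393 with copper and 1.45 ± 0.0882 without (mean ± SD, n = 3). In these means the balance of the pair moved towards MAP1A with copper in KLE cells and towards MAP1B in Ishikawa cells.

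MAP2 and MAPT, which share a microtubule-binding repeat domain, went opposite ways with copper. MAP2 (ENSG00000078018, chromosome 2, 209424047 to 209734112) stood at 3.11, 2.44 and 2.03 TPM in copper-treated KLE cells, against 1.67, 1.16 and 2.13 TPM in untreated KLE cells. In TPM these groups overlapped, since copper library 3 lay below control 3, while in CPM, counts scaled to the library total with TMM factors, they did not. In Ishikawa cells MAP2 stood at 10.2, 10.8 and 10.9 TPM with copper, against 2.34, 2.04 and 2.78 TPM without, a clear separation. Its log2 fold change was 0.68 ± 0.20 in KLE cells and 2.33 ± 0.12 in Ishikawa cells. MAPT (ENSG00000186868, chromosome 17, 45894554 to 46028334) stood at 1.23, 0.910 and 1.22 TPM in copper-treated KLE cells, against 2.11, 1.72 and 1.70 TPM in untreated KLE cells. In Ishikawa cells MAPT stood at 2.46, 2.72 and 4.09 TPM with copper, against 7.64, 7.74 and 5.19 TPM without. Every treated library lay below every untreated one in both lines, and the log2 fold changes were −0.99 ± 0.28 in KLE cells and −1.04 ± 0.14 in Ishikawa cells. The ratio of MAPT to MAP2 in TPM was 0.289 ± 0.0753 in copper-treated and 2.97 ± 0.992 in untreated Ishikawa cells, and 0.456 ± 0.126 in copper-treated KLE cells, against 1.18 ± 0.347 in untreated ones (mean ± SD, n = 3).

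**Figure D1:**
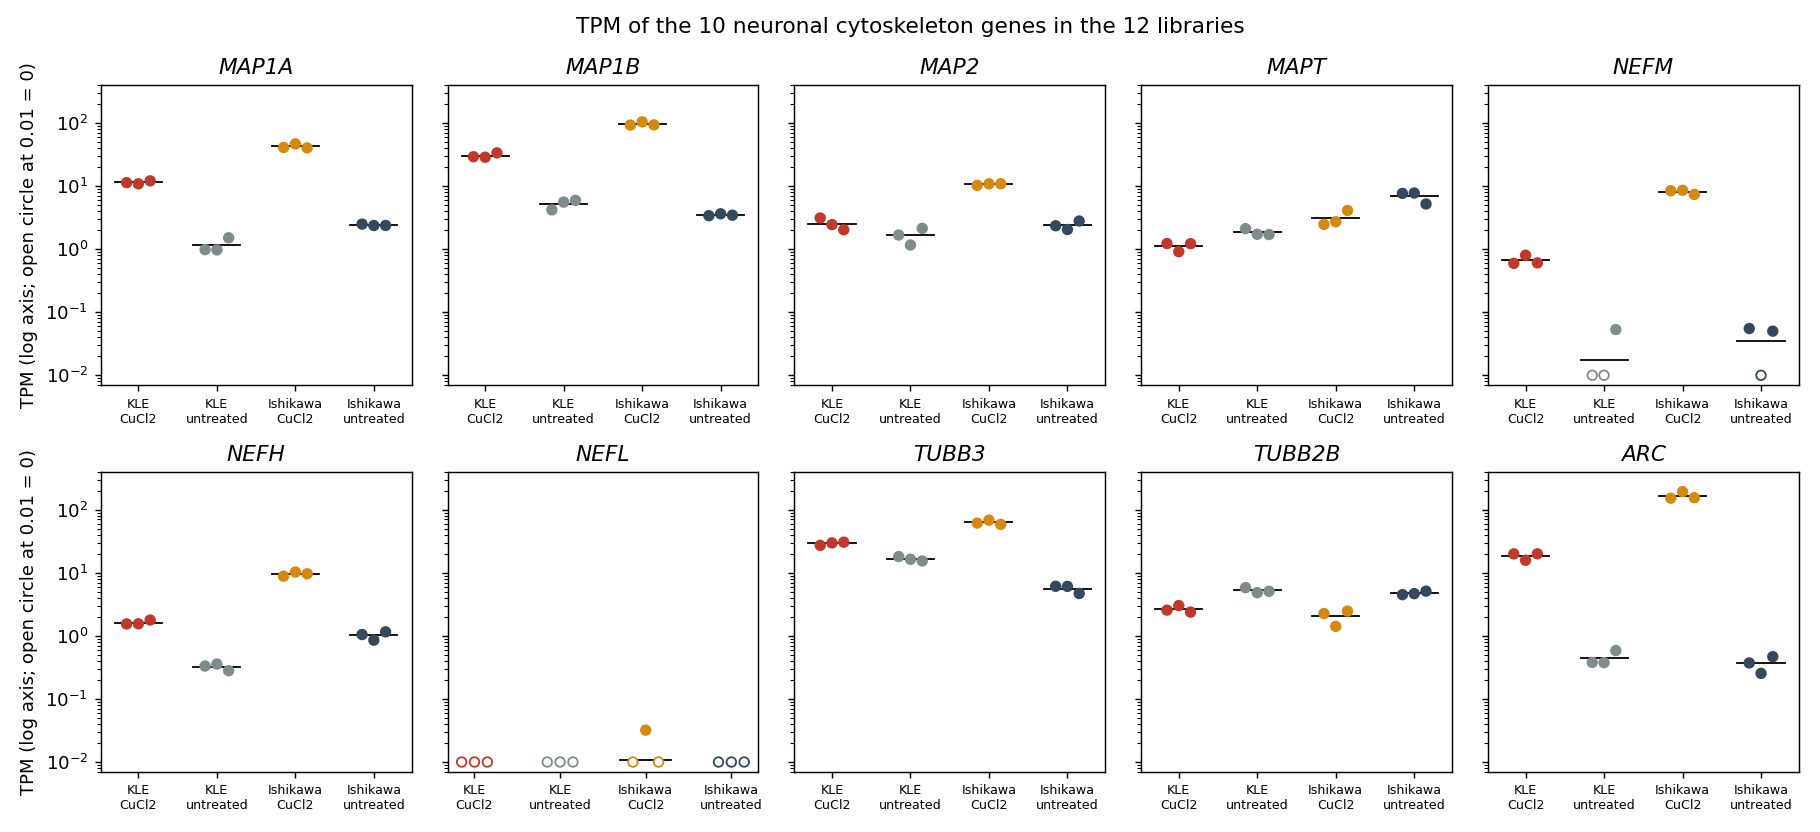
TPM of the 10 genes on a log axis, 1 panel per gene, with 1 point per library, open circles at 0.01 for libraries at 0, and a bar at the mean of 3 libraries. In ARC, MAP1A, MAP1B, TUBB3, NEFM and NEFH the copper points of each line sit above its untreated points, MAPT and TUBB2B sit below, and NEFL is at 0 in 11 libraries.

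Among the neurofilament subunits, NEFM and NEFH were higher with copper and NEFL was at or near 0 in all 4 groups. NEFM, the medium subunit (ENSG00000104722, chromosome 8, 24913761 to 24919093), had 12, 18 and 13 counts in copper-treated KLE cells, against 0, 0 and 1 in untreated KLE cells. It had 220, 227 and 161 counts in copper-treated Ishikawa cells, against 1, 0 and 1 in untreated Ishikawa cells. From summed counts scaled to library size, the ratio of copper to no copper was 43.5 in KLE cells (43 counts to 1; 95% counting interval 7.41 to 1760) and 371 in Ishikawa cells (608 counts to 2; 102 to 3070). These intervals are exact binomial ones and cover counting error only. The fitted log2 fold change of NEFM depended on single libraries. In KLE cells it was 5.00, and with each library left out it ran between 4.50 and 6.86, the highest without KLE control 3. In Ishikawa cells it was 8.31, with a range of 7.54 to 8.76, the lowest without Ishikawa control 2, which had 0 NEFM counts. NEFH, the heavy subunit (ENSG00000100285, chromosome 22, 29480218 to 29491390), stood at 1.54, 1.55 and 1.78 TPM in copper-treated KLE cells, against 0.332, 0.357 and 0.280 TPM in untreated KLE cells. In Ishikawa cells NEFH stood at 8.83, 10.3 and 9.63 TPM with copper, against 1.05, 0.854 and 1.16 TPM without. Its groups did not overlap in either line, and its log2 fold change was 2.35 ± 0.31 in KLE cells and 3.44 ± 0.15 in Ishikawa cells. With copper NEFM reached 8.41, 8.55 and 7.35 TPM in Ishikawa cells, which put it close to NEFH (ratio 0.849 ± 0.096), and 0.594, 0.800 and 0.604 TPM in KLE cells (ratio 0.413 ± 0.0918, mean ± SD, n = 3).

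NEFL, the light subunit that forms the core of neurofilaments (ENSG00000277586, chromosome 8, 24950955 to 24956612), had 1 count in all 12 libraries together, in copper-treated Ishikawa library 2. A count of 0 allows up to 0.120 to 0.214 CPM in these libraries. INA, the other subunit that can take its place in neurons, was present throughout: it averaged 39.4 ± 3.14 TPM in copper-treated and 38.1 ± 0.873 TPM in untreated KLE cells. In Ishikawa cells it averaged 35.9 ± 3.12 TPM in copper-treated and 28.7 ± 1.10 TPM in untreated cells (mean ± SD, n = 3). INA was not in the set, and it rose in Ishikawa cells by 0.51 ± 0.07 on the log2 scale (edgeR adjusted p = 1.14e-05), with a value of 0.08 ± 0.05 in KLE cells (adjusted p = 0.198). PRPH, the peripheral neuron filament peripherin, had 6 counts in copper-treated and 4 in untreated KLE cells, and in Ishikawa cells 0 with copper and 7 without, each summed over 3 libraries.

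The beta-tubulins also diverged. TUBB3 (ENSG00000258947, chromosome 16, 89921925 to 89936097) stood at 27.2, 29.7 and 30.5 TPM in copper-treated KLE cells, against 18.1, 16.4 and 15.4 TPM in untreated KLE cells. In Ishikawa cells it stood at 61.3, 68.2 and 58.5 TPM with copper, against 6.11, 6.08 and 4.69 TPM without. The order of TUBB3 levels, from high to low, was copper-treated Ishikawa, copper-treated KLE, untreated KLE and untreated Ishikawa cells, and no neighbours in that order overlapped. The log2 fold changes were 0.79 ± 0.09 in KLE cells and 3.68 ± 0.11 in Ishikawa cells. TUBB2B, a beta-tubulin of the developing brain (ENSG00000137285, chromosome 6, 3224277 to 3227653), stood at 2.55, 3.02 and 2.38 TPM in copper-treated KLE cells, against 5.81, 4.84 and 5.09 TPM in untreated KLE cells. In Ishikawa cells TUBB2B stood at 2.26, 1.41 and 2.47 TPM with copper, against 4.50, 4.67 and 5.11 TPM without. Copper-treated libraries were below untreated ones in both lines, with log2 fold changes of −0.96 ± 0.20 in KLE cells and −1.04 ± 0.22 in Ishikawa cells. Estimated counts of TUBB3 and TUBB2B were not whole in 12 of 12 libraries, unlike those of the other 8 genes, so part of their reads was shared out among similar sequences by the authors' quantification. TUBB2A is nearly identical to TUBB2B, and the split between them is uncertain.

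Shares were taken within a pool of 7 beta-tubulin isotypes, which left out TUBB1 and TUBB8, at group means of at most 0.751 and 1.20 TPM. TUBB3 made up 1.24 ± 0.085% of the pool's TPM in copper-treated and 0.695 ± 0.0836% in untreated KLE cells. In Ishikawa cells its share was 3.13 ± 0.164% with copper and 0.226 ± 0.0227% without (mean ± SD, n = 3). TUBB2B made up 0.113 ± 0.0145% in copper-treated and 0.220 ± 0.031% in untreated KLE cells. In Ishikawa cells it made up 0.103 ± 0.0302% with copper and 0.192 ± 0.023% without. TUBB, the common isotype, held between 52.5 and 57.5% of the pool as a group mean. The pool itself summed to 2350 ± 23.4 TPM in copper-treated and 2390 ± 103 TPM in untreated KLE cells, and in Ishikawa cells to 2000 ± 55.4 TPM with copper and 2490 ± 150 TPM without. TUBB3 therefore stayed a minor isotype in all 4 groups.

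**Figure D2:**
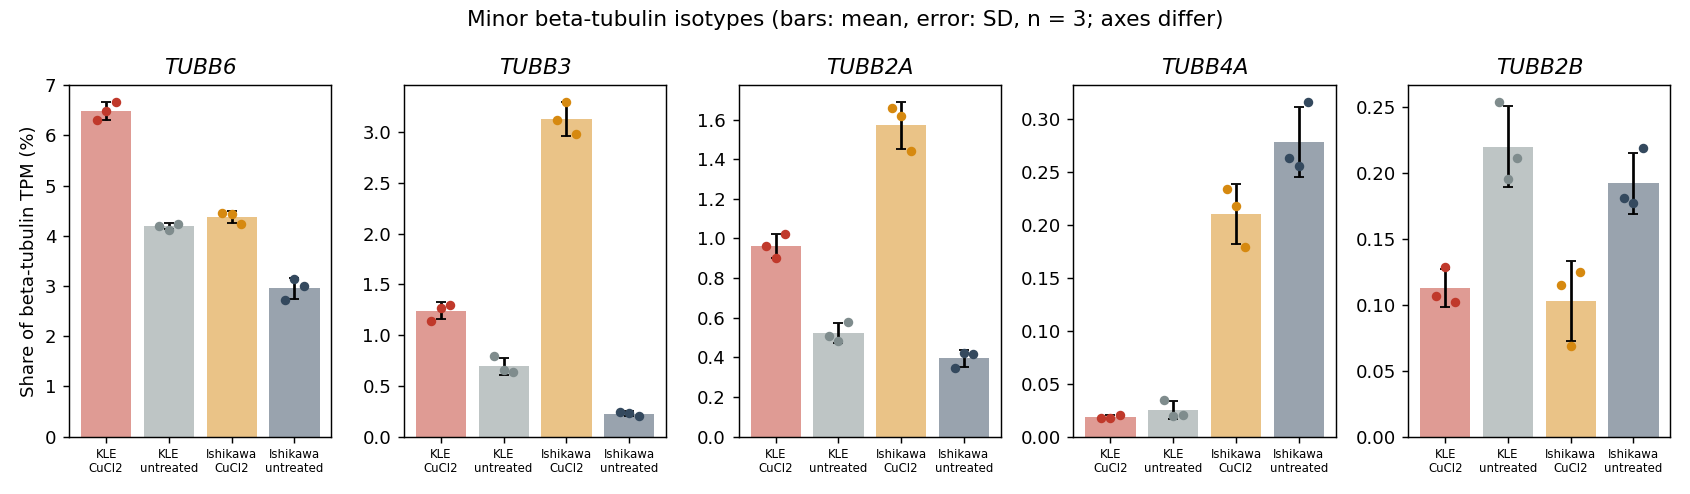
Share of the summed TPM of 7 beta-tubulin isotypes, in percent, for the 5 minor isotypes; bars are means of 3 libraries, error bars SD, points libraries, and each panel has its own axis from 0. TUBB3 reaches 3.13% in copper-treated Ishikawa cells, and TUBB2B is lower with copper in both lines.

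ARC had the highest fitted log2 fold change of the set in each line, although NEFM exceeded it in KLE cells without KLE control 3. With copper it was the highest of the 10 genes in Ishikawa cells, while in KLE cells MAP1B and TUBB3 were above it. ARC (ENSG00000198576, chromosome 8, 142611049 to 142614479) stood at 19.9, 15.8 and 19.9 TPM in copper-treated KLE cells, against 0.379, 0.376 and 0.585 TPM in untreated KLE cells. In Ishikawa cells it stood at 152, 193 and 155 TPM with copper, against 0.372, 0.254 and 0.468 TPM without. The untreated lines overlapped each other, and each treated group lay above both. The untreated values rest on 8 to 13 counts a library. The log2 fold change was 5.39 ± 0.17 in KLE cells, the 4th highest of 13031 genes tested, and 9.07 ± 0.16 in Ishikawa cells, the 5th highest of 13359. These standard errors are too narrow, since the untreated groups held 30 counts in KLE cells and 28 in Ishikawa cells.

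For the whole set, 7 genes had all copper libraries above all untreated ones by CPM in KLE cells, where 28.4% of tested genes did, and 2 had all below, where 28.3% did. By edgeR, 50.8% of genes tested in KLE cells and 69.1% in Ishikawa cells changed in either direction. In Ishikawa cells the counts were also 7 and 2, beside 32.1% and 40.8% of tested genes. By TPM, the count above was 6 in KLE cells, MAP2 being the difference. In all, 9 genes passed the filter on low counts in each line, NEFL being the exception. Some passed only through their copper libraries, with fewer than 3 untreated libraries at the filter's minimum of 10 counts in a library of median size: NEFM and ARC in both lines, with 0 and 1 untreated libraries at it in each, and NEFH in KLE cells, with 1. The choice of genes fixed these counts, and nothing is read from them. In the Ishikawa comparison, edgeR called 4514 genes higher and 4714 lower with TMM scaling and 3370 higher and 6068 lower with library totals, with a median log2 change over all genes of −0.013 under TMM scaling and −0.167 under library totals. The sign of each of the 9 genes was the same under all scalings tried.

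The untreated lines were compared with each other, a contrast the choice of genes did not use, to ask whether the genes start from the same level. Tests were made with edgeR across 13663 genes, of which 24.5% were higher and 25.6% lower in KLE cells. Of the 9 members of the set that were tested, 2 were higher in untreated KLE than in untreated Ishikawa cells: TUBB3 by 1.63 ± 0.11 on the log2 scale (adjusted p = 2.17e-11) and MAP1B by 0.65 ± 0.10 (adjusted p = 3.56e-05). Another 4 were lower in KLE cells: MAPT at −1.90 ± 0.17 (adjusted p = 1.44e-09), NEFH at −1.56 ± 0.25 (adjusted p = 1.38e-05), MAP1A at −0.98 ± 0.13 (adjusted p = 3.78e-06) and MAP2 at −0.66 ± 0.17 (adjusted p = 0.00266). In TPM the untreated KLE libraries lay outside the range of the untreated Ishikawa libraries for TUBB3, MAP1B, MAPT, NEFH and MAP1A, while for MAP2 KLE control 3, at 2.13 TPM, lay above Ishikawa control 2, at 2.04 TPM. With limma on log2(TPM + 1) MAP2 was at −0.36 with an adjusted p of 0.0699, where its adjusted p over 20 alternatives ran between 0.000672 and 0.0699. TUBB2B had a difference of 0.21 (approximate 95% interval −0.15 to 0.57; adjusted p = 0.362). ARC had one of 0.42 (−0.63 to 1.47; adjusted p = 0.543), but only 2 of its 6 untreated libraries reached the count filter, so the depth limits this comparison. For NEFH, 1 of 3 untreated KLE and 3 of 3 untreated Ishikawa libraries reached it. NEFM, at 1 count in untreated KLE and 2 in untreated Ishikawa cells, could not be compared at this depth.

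The size of the copper response was then compared between the lines, as the difference of log2 fold changes, KLE minus Ishikawa. The genes were not chosen for a difference between lines, but a response that is high by chance in either line would enter it, and it shares the untreated libraries with the comparison above. Of 13663 genes tested, 45.4% differed in either direction with 20.8% below and 24.6% above 0, a split whose order turned round under RLE scaling (3196 genes below, 2942 above). In 6 of the 9 genes tested the KLE response was below the Ishikawa response: ARC at −3.62 ± 0.60 (adjusted p = 0.000173), TUBB3 at −2.84 ± 0.14 (adjusted p = 4.28e-13), MAP1B at −2.25 ± 0.12 (adjusted p = 3.21e-10), MAP2 at −1.59 ± 0.23 (adjusted p = 5.63e-06), NEFH at −1.03 ± 0.32 (adjusted p = 0.0105) and MAP1A at −0.96 ± 0.16 (adjusted p = 5.99e-05). ARC reached the count filter in 6 copper but only 2 untreated libraries. It thus entered this fit through the copper values it was chosen on, and its difference is a description. NEFH lost the call without KLE control 2, at −0.95 with an adjusted p of 0.0581, the highest of 20 alternatives whose lowest was 1.91e-05. NEFM reached the count filter in 6 copper and 0 untreated libraries, so its difference is also a description, whatever its adjusted p. It was −3.22 with an interval of −7.02 to 0.59 (edgeR adjusted p = 0.22), and −1.26 without KLE control 3. With limma on log2(TPM + 1) it was −2.43 (adjusted p = 1.35e-07, in a range up to 0.781). With ARC among the 6 and NEFM among the 9, that count is not read against the 20.8%.
The 2 genes that were lower with copper gave no call in this comparison. MAPT differed by 0.10 (−0.45 to 0.65; adjusted p = 0.784) and TUBB2B by 0.14 (−0.43 to 0.70; adjusted p = 0.725). For each, differences as large as 0.43 in either direction lie within the interval.

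**Figure D3:**
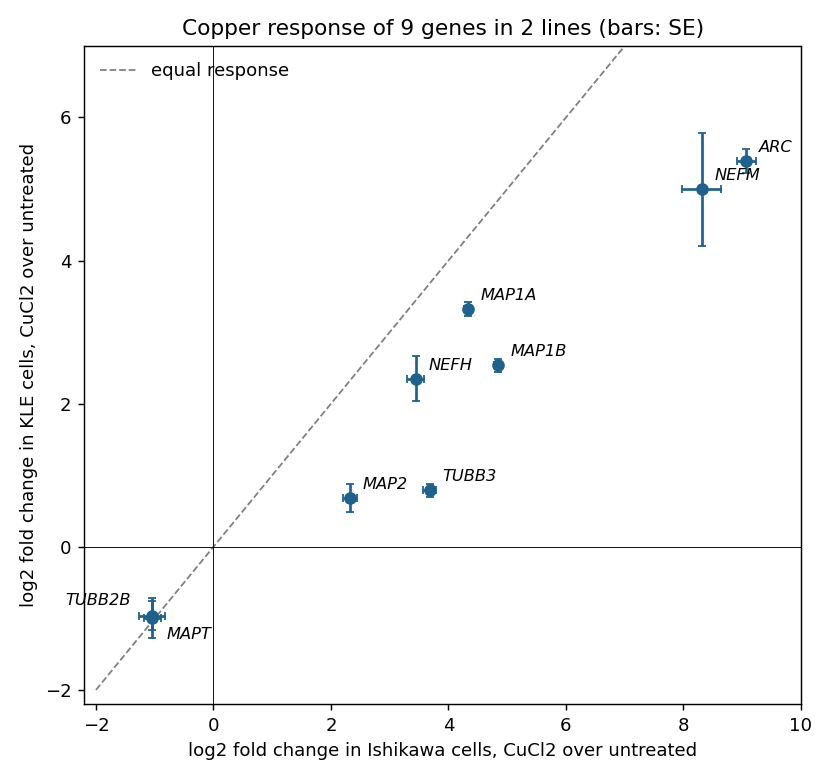
Log2 fold change with copper over untreated in KLE cells (vertical axis) against Ishikawa cells (horizontal axis) for the 9 genes that passed the count filter; bars are standard errors and the dashed line marks equal responses. The 7 genes above 0 lie under the line, and MAPT and TUBB2B lie near it, at −1.04 in Ishikawa cells and −0.99 and −0.96 in KLE cells.

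Other genes of the same systems were read from lists drawn up by function, with edgeR calls over all genes tested. The lists were chosen with earlier results of these data known, so their counts and medians are a description. In KLE cells 25.6% of genes were called higher and 25.2% lower with copper, and in Ishikawa cells 33.8% and 35.3%. Of 34 further microtubule-associated proteins, 27 were tested in each line. In KLE cells 8 rose and 6 fell (median log2 change 0.11, against −0.002 over all genes), and in Ishikawa cells 15 rose and 8 fell (median 0.18, against −0.013), with 9 higher in Ishikawa cells under library-total scaling and 4 higher in KLE cells with limma on log2(TPM + 1). MAP1LC3B, light chain 3 of the MAP1 proteins and a protein of autophagosomes, rose by 0.76 ± 0.04 in KLE cells and 2.49 ± 0.05 in Ishikawa cells (adjusted p = 1.85e-18 and 1.59e-14). MAP6, which protects microtubules from cold, rose by 4.58 ± 0.42 in Ishikawa cells (adjusted p = 1.64e-07), at 1.69, 1.39 and 1.83 TPM with copper against 0.095, 0.038 and 0.029 TPM without, and was not tested in KLE cells for low counts. Its standard error is too narrow, since the untreated Ishikawa libraries held 6 counts together. CAMSAP2, a binder of microtubule minus ends, rose by 0.48 in KLE cells and 1.11 in Ishikawa cells, and CLIP1, a plus-end protein, rose by 0.51 and 1.06. MAP6D1, a relative of MAP6, fell by 0.77 in KLE cells and by 1.34 in Ishikawa cells.

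Of 20 other tubulins, 6 rose and 2 fell of 15 tested in KLE cells, and 5 rose and 5 fell of 16 tested in Ishikawa cells. The alpha-tubulin TUBA4A rose by 0.89 ± 0.06 in KLE cells and 1.83 ± 0.09 in Ishikawa cells (adjusted p = 1.01e-16 and 2.62e-10). TUBB2A rose by 0.89 ± 0.10 and 1.85 ± 0.11 in the same order (adjusted p = 8.52e-10 and 1.56e-09), opposite to the values of its near copy TUBB2B. TUBB6 rose by 0.66 in KLE cells and 0.45 in Ishikawa cells. The number of tubulins that fell in KLE cells depended on single libraries and on scaling: it was 4 without control 1 and with upper-quartile or library-total scaling, and 1 with DESeq2 and without control 2, control 3, copper library 2 or copper library 3. In Ishikawa cells 3 fell with DESeq2 and 2 without copper library 3.
Of 29 genes of tubulin folding, modification and severing, 8 rose and 6 fell of 27 tested in KLE cells, and 9 rose and 8 fell in Ishikawa cells. TTLL7, which adds glutamate chains to beta-tubulin, stood at 20.1, 19.0 and 21.9 TPM in copper-treated KLE cells, against 9.48, 9.36 and 8.82 TPM in untreated KLE cells, and in Ishikawa cells at 39.7, 44.4 and 40.0 TPM with copper, against 6.03, 5.70 and 5.86 TPM without. It rose by 1.15 ± 0.08 in KLE cells and by 2.82 ± 0.08 in Ishikawa cells (adjusted p = 5.32e-16 and 4.05e-13). VASH1 and VASH2, which remove the terminal tyrosine of alpha-tubulin, fell in both lines, VASH1 by 0.64 in KLE cells and by 1.55 in Ishikawa cells, and VASH2 by 1.62 and 1.53. KATNAL1, a relative of the severing enzyme katanin, rose by 0.55 and 0.90.

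Of 12 other intermediate filament genes, edgeR called 0 of 9 higher and 5 lower in KLE cells, and 2 of 9 higher and 4 lower in Ishikawa cells. The 0 in KLE cells was also 0 at an unadjusted p under 0.05 and with DESeq2. Without KLE copper library 1 or 3, 1 rose in KLE cells. The nuclear lamin LMNB1 fell by 0.75 in KLE cells and by 1.13 in Ishikawa cells, and NES, the progenitor filament nestin, rose by 1.11 ± 0.14 in Ishikawa cells (adjusted p = 6.51e-06) with a value of 0.26 ± 0.15 in KLE cells (adjusted p = 0.141). Of 18 neurite growth genes, 2 rose and 7 fell of 13 tested in KLE cells (median −0.24), and 4 rose and 8 fell of 12 in Ishikawa cells (median −0.39). The adhesion molecule L1CAM was among those that rose, by 0.87 ± 0.09 in KLE cells and 2.79 ± 0.13 in Ishikawa cells, while NAV1 fell by 0.69 and 1.17 and PALM by 1.86 and 0.98. Kinases that phosphorylate tau and other microtubule proteins had medians of 0.09 in KLE cells and 0.23 in Ishikawa cells: 5 rose and 3 fell of 13 in KLE cells, and 6 rose and 2 fell of 13 in Ishikawa cells. The kinase GSK3B rose by 0.20 in KLE cells and by 0.49 in Ishikawa cells. In KLE cells 1 kinase fell with DESeq2 or without copper library 1, and in Ishikawa cells 4 fell under library-total scaling. With limma on log2(TPM + 1), 1 kinase rose and 0 fell in KLE cells.

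Of 16 other genes induced by neuronal activity, the class to which ARC belongs, 6 rose and 5 fell of 14 tested in KLE cells (median −0.04), and 13 rose and 1 fell of 16 in Ishikawa cells (median 1.07). Without KLE control 1, 3 of them fell in KLE cells, and without Ishikawa control 3, 2 fell in Ishikawa cells. NPTX2, a secreted synaptic pentraxin, had 46 counts in copper-treated and 3 in untreated KLE cells, a ratio of 15.5 (95% counting interval 4.99 to 78.0), and 276 in copper-treated and 3 in untreated Ishikawa cells, a ratio of 112 (38.0 to 548). NPAS4, an activity-dependent transcription factor, had 221 counts in copper-treated and 6 in untreated Ishikawa cells, and EGR4 had 206 and 9. Their fitted log2 fold changes there were 5.45 ± 0.36 and 4.80 ± 0.35 (edgeR adjusted p = 5.27e-09 and 1.27e-08). Both passed the count filter through their copper libraries, and with so few untreated counts these standard errors are too narrow. Neither had enough counts for a test in KLE cells. The nuclear receptor genes NR4A3 and NR4A1 rose by 1.77 and 0.88 in KLE cells and by 3.50 and 3.25 in Ishikawa cells, and BDNF, a neurotrophin, rose by 1.06 in KLE cells and by 1.74 in Ishikawa cells. FOS, EGR2 and FOSB fell in KLE cells by 1.33, 1.41 and 1.08, where FOS and FOSB rose in Ishikawa cells by 0.31 and 0.76 and EGR2 had a value of 0.31 (adjusted p = 0.366). The KLE response was below the Ishikawa response in 11 of the 16 activity genes and above it in 1 (median difference −1.63, against 0.034 over all genes). Among all genes tested, 20.8% were called below and 24.6% above. Of 24 other gag-derived genes, relatives of ARC by origin, 1 rose and 1 fell of 12 tested in KLE cells, and 4 rose and 6 fell of 13 in Ishikawa cells. In KLE cells 0 gag-derived genes rose with DESeq2 and without control 3 or copper library 1, and 3 fell with upper-quartile scaling.

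**Figure D4:**
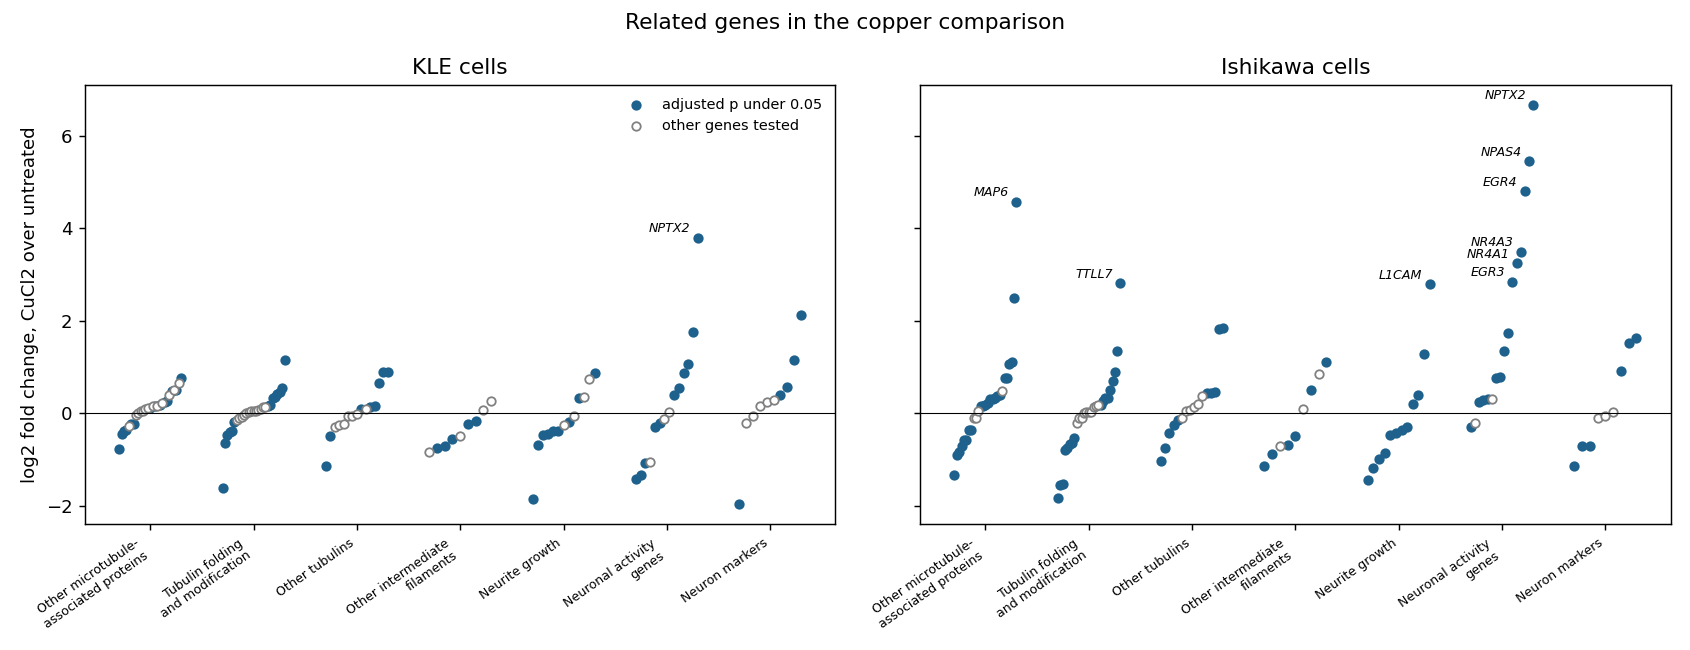
Log2 fold change with copper over untreated for tested genes of 7 related lists, KLE cells on the left and Ishikawa cells on the right; filled points have an edgeR adjusted p under 0.05. MAP6, TTLL7, L1CAM and 6 activity genes lie above 2.7 in Ishikawa cells, and NPTX2 alone does in KLE cells.

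Neuron markers were read to see whether other neuronal transcripts moved with the set. The 22 markers summed to 119 to 131 TPM in copper-treated and 80.2 to 86.0 TPM in untreated KLE cells, and in Ishikawa cells to 138 to 143 TPM with copper and 88.2 to 95 TPM without. Most of the sum came from UCHL1, ENO2 and CHGA, at means of 62, 24 and 38.1 TPM in copper-treated Ishikawa cells and 43.9, 46.2 and 3.62 TPM in copper-treated KLE cells. In KLE cells 4 markers rose and 1 fell of 10 tested, and in Ishikawa cells 3 rose and 3 fell of 9. Among those with high levels were UCHL1, a ubiquitin hydrolase that rose by 1.15 in KLE cells and by 1.63 in Ishikawa cells, and ENO2, a glycolytic enzyme that rose by 0.58 in KLE cells and had a value of −0.06 in Ishikawa cells. CHGA, a granule protein, rose by 2.12 in KLE cells and by 1.53 in Ishikawa cells. SNAP25, a protein of synaptic vesicle fusion, fell by 1.96 in KLE cells and by 1.14 in Ishikawa cells. GAD1 and POU4F1 each fell by 0.71 in Ishikawa cells, and neither was called in KLE cells. Of the 22 markers, 3 were at 0 counts in all 12 libraries: ELAVL4, an RNA-binding protein of neurons, NEUROD1, a transcription factor of neurons and endocrine cells, and SLC17A6, a transporter of glutamatergic neurons. Synaptic and secretory markers such as SYN1, SNAP25 and CHGA were detected. In bulk RNA, fewer cells of a type and less RNA per cell cannot be told apart, and the part of these markers in the result was not tested.
Of 10 glial markers, of which MOG was at 0 in all libraries, 3 were tested; 2 rose and 1 fell in each line. The glial list summed to 73.0 to 81.7 TPM in copper-treated and 73.3 to 74.4 TPM in untreated KLE cells, and in Ishikawa cells to 49.7 to 55.6 TPM with copper and 52.8 to 63.9 TPM without. The 10 stromal, leukocyte and endothelial markers summed to 52.6 to 64.5 TPM in copper-treated and 46.5 to 73.8 TPM in untreated KLE cells, and in Ishikawa cells to 25.8 to 48.1 TPM with copper and 14.1 to 38.7 TPM without, the lowest in Ishikawa control 2. Of these, 1 rose and 2 fell of 9 tested in KLE cells. The number that fell there was 6 without control 1, 1 without control 2, copper library 1 or copper library 2, and 0 with DESeq2 and without control 3 or copper library 3. In Ishikawa cells edgeR called 3 higher and 0 lower of 10; the 0 was also 0 at an unadjusted p under 0.05 and with DESeq2, and 1 fell without copper library 1. Of 8 endometrial epithelium markers, 2 rose and 1 fell of 6 tested in KLE cells, where 3 fell with upper-quartile scaling and 2 without copper library 2. In Ishikawa cells 1 rose and 4 fell of 7, and 0 rose without copper library 1.
REST, the repressor of neuronal genes outside neurons, averaged 28.7 ± 0.596 TPM in copper-treated and 35.1 ± 1.02 TPM in untreated KLE cells. Ishikawa cells had 35.1 ± 2.01 TPM with copper and 34.1 ± 1.73 TPM without (mean ± SD, n = 3). By edgeR, REST was at −0.16 ± 0.04 on the log2 scale in KLE cells (adjusted p = 0.00168) and 0.19 ± 0.06 in Ishikawa cells (adjusted p = 0.00664). It was not called higher in Ishikawa cells under library-total scaling. Of REST and 12 genes of its corepressor complexes, 1 rose and 9 fell in KLE cells, and 4 rose and 6 fell in Ishikawa cells, where 1 rose under upper-quartile and 0 under library-total scaling. RCOR2, a corepressor, fell by 0.53 in KLE cells and by 1.81 in Ishikawa cells.

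The genes whose profile over the 4 groups was most like that of each member were found by the root mean square difference of centred group means of log2 CPM, among 13663 genes and over 4 groups of 3 libraries. Before the log, 0.1 was added to each CPM, so distances for genes with few counts depend on that value. For ARC the nearest were the GTPase gene RRAD (0.36 log2 units), USP17L2 (0.66) and the chaperone gene HSPA6 (0.70). For MAP1B they were the receptor gene IL7R (0.05), NLRP10 (0.21) and AKR1B10 (0.21), and for MAP1A GADD45G (0.19), DGKB (0.25) and SSX1 (0.36). NEFM was nearest to DLL1 (0.22), ANKRD1 (0.23) and the chaperone gene HSPA1A (0.28), and those near TUBB3 included the co-chaperone gene DNAJA4 (0.18) and ARL14EPL (0.21). Near profiles did not always mean equal fitted log2 fold changes. In Ishikawa cells SSX1 had 8.51 and MAP1A 4.33, and SSX1 was not tested in KLE cells. DLL1 had 2.62 in KLE and 6.28 in Ishikawa cells, where NEFM had 5.00 and 8.31. USP17L2, HSPA1A and HSPA6 have near-identical copies, so their values are uncertain. NEFH was nearest to VCX3B (0.18) and MAP2 to FTCD (0.09). Of the genes that were lower with copper, MAPT was nearest to SLC47A1 (0.07) and TUBB2B to CDK14 (0.02).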

How the data were processed

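RNA was sequenced from KLE and Ishikawa cells with and without copper chloride, after enrichment of mRNA on oligo(dT) beads per the labels' protocols. The submitters' processing notes list RSEM, DESeq2, HISAT2 (2.1.0), Bowtie2 (2.2.8), fastp (0.18.0) and R (4.2.2) as tools, and GRCh38.p14 as build; the role of each is not given in the sources used here. For 20332 genes the authors deposited expected counts and TPM in a joint table, and for each line whole counts that equal the expected counts rounded to within 0.5. Tables whose names say FPKM have columns of TPM, per the file headers, so the alternative planned on them used TPM.

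Whole counts were tested with edgeR 4.0.16 in R 4.3.3, by a two-sided quasi-likelihood test with TMM factors, filterByExpr and robust dispersions, with Benjamini-Hochberg adjustment over all genes at a threshold of 0.05. Copper was tested within the 6 libraries of a line, and the untreated lines and the difference of responses in a fit of 12. Standard errors were taken as the size of the log2 change divided by the root of its F statistic, and intervals as 1.96 of these either side; both are too narrow where counts are few. Levels are the authors' TPM. Other settings tried were 3 scalings (RLE, upper-quartile and library totals), no count filter, CPM above 1 in 3 libraries, DESeq2 1.42.0, limma 3.58.1 on log2(TPM + 1), a replicate block, and each library left out. In simulated counts with 200 genes changed, edgeR recovered 76% of 1.5-fold changes in the KLE design, 79% in the Ishikawa design, 63% for the difference and 77% for the untreated lines. False calls made up 10.6% in the KLE design, 5.14% in the Ishikawa design, 5.3% for the difference and 6.36% for the untreated lines.

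The members and the 13 related lists (232 genes) were chosen with earlier results of these data known. Named were the members, per list, line and direction up to 3 called genes with the largest changes (given in both lines), and the 3 genes nearest in profile; some genes that this rule names are not reported here. The filament gene PRPH and the epithelial and receptor genes of the label check are named beside these. Gene positions and promoters are RefSeq's on GRCh38.p14, matched by symbol, with positions for 10 members and promoters for 5.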

Additional observations from a re-analysis of the deposited data

Results flagged for a closer look

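The copper response differed between the lines, by an edgeR test of the difference itself, in 6 of the 9 genes tested, where 45.4% of all genes did. ARC, among the 6, and NEFM, among the 9, passed the count filter of this test only through their copper libraries. The differences of log2 fold change, KLE minus Ishikawa, were −3.62 for ARC, −2.84 for TUBB3, −2.25 for MAP1B, −1.59 for MAP2, −1.03 for NEFH and −0.96 for MAP1A. The value of ARC is thus a description, and the 6 of 9 is not read against the 45.4%. The genes had been selected on their copper response, so nothing is read from its direction in either line.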

How the results depend on the processing

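The number of genes called in each of the 4 comparisons stayed within 1.5 times its value under every alternative run, and so did the numbers of members above and below (with TPM in place of CPM, chosen after seeing the data, 6 in KLE cells). No member's copper value changed sign in 251 recalculations, and 27 moved by more than the replicate spread, 14 of them under limma on log2(TPM + 1), a scale that understates the change of low genes. Of 180 recalculated differences of response, 175 kept their side of the threshold and their sign, and of 180 differences between untreated lines, 179 did. In all, 3 differences of response, none of them called, changed sign: TUBB2B was at −0.12 without Ishikawa copper library 2 (range with each library left out −0.12 to 0.22), and MAPT at −0.03 without KLE control 3 and −0.01 without KLE copper library 3 (range −0.03 to 0.24); the cause was not tested. The labels do not say that a replicate number marks a shared culture or day, so same-numbered libraries were not treated as pairs. Their deviations had correlations of −0.07, −0.03 and −0.09 in KLE cells and 0.06, 0.19 and 0.09 in Ishikawa cells, for numbers 1 to 3. The highest with another number were 0.06, 0.04 and 0.08 in KLE cells and 0.08, −0.07 and 0.01 in Ishikawa cells. Ishikawa numbers 2 and 3 were thus closer to their own number, and the cause was not tested. With the replicate block the calls were 9355 in Ishikawa cells, 6193 in KLE cells, 6145 for the difference and 6788 for the untreated lines; no tested member's call changed, and the activity genes that fell in KLE cells numbered 3. Of 728 recalculated counts of called genes in the related lists, 59 moved by more than 1.5 times. Of these, 13 moved with limma on log2(TPM + 1), to 4 other microtubule-associated proteins and 1 kinase higher, 0 gag-derived and 0 REST-complex genes higher, 0 kinases and 0 stromal markers lower and 2 endometrial markers lower in KLE cells, and in Ishikawa cells to 2 neurite growth genes, 1 glial, 1 stromal, 0 endometrial and 0 REST-complex genes higher and 2 activity genes lower. Depth limits NEFM in untreated cells and NEFL in all groups. With limma on log2(TPM + 1), 2995 genes were higher and 5623 lower in Ishikawa cells (median −0.157 over all genes), and 3505 differences of response were above and 1901 below 0 (median 0.106), where edgeR gave 3358 above and 2848 below. The order turned round with RLE scaling (2942 above, 3196 below), DESeq2 (2581, 3000) and no count filter (2935, 3069), and without KLE control 1, KLE copper library 3 or any 1 of the Ishikawa copper libraries.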
